A study of Mus musculus with 9 samples.

Results

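Macrophages sorted from mouse testis were compared with microglia, the macrophages of the brain, gene by gene, across 3 RNA sequencing libraries of each organ. The genes compared were those with a normalized read count of 10 or more in at least 3 of these 6 libraries. The rule kept 10820 of the 15434 genes in the deposited table, of which 6653 reached 10 in all 6 libraries, 289 in testis libraries alone and 171 in brain libraries alone. At the edge of the rule, 1305 genes reached 10 in exactly 3 of the libraries and 1395 in exactly 2, so these last were left out. The median of their mean levels was 17.98 just inside and 9.38 just outside. The animals were untreated C57BL/6J mice with no transgene named in the labels, and their age is not given in the sources used here. Cells were freshly isolated and sorted, without culture, as CD45+ CD11b+ F4/80+ cells that lacked Ly6C and CD11c. The study also sorted macrophages from the epididymis, the duct in which sperm mature, and those 3 libraries entered the estimate of spread and are given beside single genes. The protocol mentions pooling of testis and epididymis cell suspensions in wording that does not make clear how, so it cannot be said whether these were kept apart at that step. The labels give 1 mouse number per organ, number 1 for all testis libraries and number 3 for all brain libraries, so organ and mouse number cannot be told apart. Nothing in the labels says that libraries of 1 organ came from separate animals, so the p-values below measure the spread between libraries, which may be technical.

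Testis macrophages lie in the interstitium among the hormone-producing Leydig cells and around the seminiferous tubules, where sperm cells carry antigens that arise after immune tolerance has formed. Microglia enter the brain before birth, renew themselves there, and keep an identity that depends on CSF1 receptor signals, TGF-beta and the transcription factor SALL1. Both populations depend on the macrophage growth factor receptor CSF1R, clear dead cells and present antigen.

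Depth ran from 2727092 reads on genes in brain replicate 2 to 4458688 in testis replicate 2. Of the 10820 genes, 1368 (12.6%) passed the threshold of a limma adjusted p under 0.05. Of these, 801 genes (7.4% of all compared) were higher in testis and 567 (5.24%) were lower. The median log2 fold was 2.53 among the higher and -2.14 among the lower genes. Every list count below is to be read beside these shares, and a lone called gene in a longer list is near or below them. At an unadjusted p under 0.05 there were 2659 genes. The 3 testis values and the 3 brain values did not overlap for 3510 genes (32.4%), among them 1361 of the 1368. Differences were often large: 509 higher and 306 lower genes changed at least 4-fold, and 293 and 165 at least 16-fold. No read in any brain library was found for 121 of the higher genes, and none in any testis library for 78 of the lower genes. Levels are normalized read counts in the order of library replicates 1, 2 and 3. A log2 fold is the testis minus the brain mean of log2(count + 1). The added 1 shrinks the change of genes with few reads. Where levels vary among the libraries of 1 organ, the log2 fold can also exceed the log2 ratio of the mean levels. Sox4, with means of 65.7 in testis and 3667 in brain, had a log2 fold of -7.55. Where 1 organ had no read, the fold is given as a lower bound against a floor of 3 reads per library, which is 2.91 in brain and 2.70 in testis on the normalized scale. The median log2 fold of all 10820 genes was -0.09. Rescaling all libraries to the same total moved that median by -0.22 and the share of higher genes among the called from 58.6% to 45.8%. The count fell by over 1.5 times without brain replicate 1 (827 genes) or brain replicate 2 (889 genes). The higher genes numbered 522 without brain replicate 1, and the lower genes 305, 325 and 375 without brain replicates 1, 2 and 3.

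**Figure D1:**
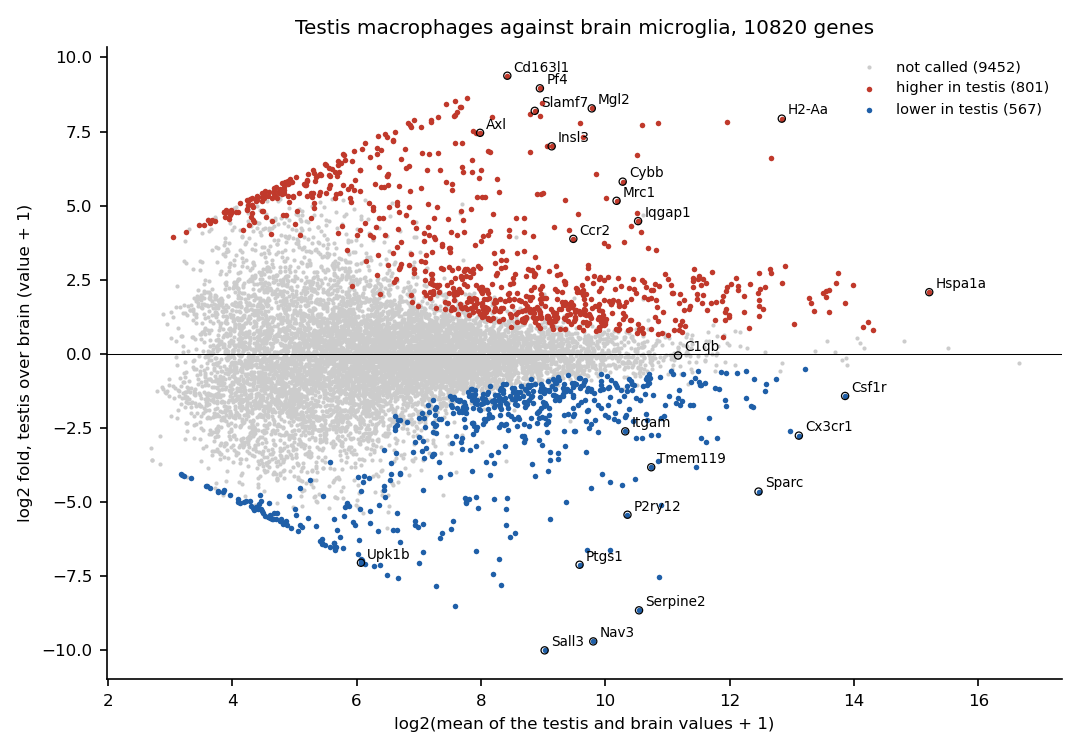
Each point is 1 of the 10820 genes, with the log2 of the mean of both organs' levels (+ 1) on the x axis and the log2 fold of testis over brain on the y axis. Red points are the 801 genes higher in testis, blue points the 567 lower genes and grey points the genes that did not pass. The diagonal edges are formed by genes with few or no reads in 1 organ, and circled points carry their gene symbols.

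Libraries of 1 organ were more alike than libraries of different organs, and the testis libraries varied more among themselves than the brain libraries. Across the 10820 genes the Pearson correlation of log2 levels was 0.684 to 0.758 among testis libraries, 0.771 to 0.829 among brain libraries and 0.506 to 0.633 between the organs. These are descriptions across genes, which are not independent. The median coefficient of variation was 29.1% in testis (4996 genes with a mean of 100 or more) and 23.9% in brain (4879 genes). In testis 149 genes had a value of 0 in 1 library and 100 or more in another, against 42 genes in brain. Testis replicate 1 lay at least 4-fold below both other testis libraries for 98 genes, more than any other library did for its organ.

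The genes behind the sort gate were read first. Ptprc, which encodes CD45, had levels of 3004, 3152 and 2259.5 in testis and 1657, 1849 and 1359.9 in brain, with no overlap, a log2 fold of 0.79 (SE 0.21, limma adjusted p = 0.021). Its call was lost in 4 of the 6 single omissions (limma adjusted p 0.078 without testis replicate 1, 0.089 without testis replicate 2, 0.062 without brain replicate 1 and 0.076 without brain replicate 3). Itgam, which encodes CD11b, stood at 451, 348 and 283 in testis and 2094, 2451 and 2047 in brain. Every brain library thus lay above every testis library, a log2 fold of -2.62 (SE 0.23, limma adjusted p = 2e-06). Its annotated exons share 68.7% of their bases with Gm49368 on the same strand. Adgre1, which encodes F4/80, had 100.4, 231 and 240.2 in testis and 88.3, 42.4 and 84.4 in brain and did not pass (limma adjusted p = 0.094). Csf1r, the receptor on which macrophages depend, had 8726, 8564 and 6845 in testis and 19251, 21179.6 and 24507 in brain, again without overlap, a log2 fold of -1.43 (SE 0.17, limma adjusted p = 4.2e-05). Ly6c2, one of the genes behind the excluded Ly6C, had 101, 63.01 and 80.4 in testis and 8.2, 46.8 and 6.22 in brain and did not pass, and Itgax, which encodes CD11c, fell below the rule. Macrophage genes that did not pass included the complement gene C1qb (1961, 2436 and 2369.8 in testis and 2180.5, 2238 and 2643 in brain) and Laptm5, a lysosomal membrane protein of blood cells (2622, 2895 and 3006 in testis and 2924, 3735 and 3404 in brain). In both genes the testis and brain ranges overlapped.

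Reads on marker genes of other cell types were present in both organs and differed between them. Which cells gave these reads cannot be told from bulk RNA. Markers of Leydig cells took 6.76 to 13.3 of every 10000 reads in testis and 1.07 to 1.73 in brain. Cyp17a1, the steroid 17-alpha-hydroxylase of Leydig cells, had 382, 284 and 366 in testis and 0, 0 and 0 in brain, so no read was found in brain. Insl3, a Leydig cell hormone whose annotated exons share 64.8% of their bases with Jak3, had 906, 507 and 1939.8 in testis and 8.2, 2.23 and 13.3 in brain. Markers of meiotic and haploid sperm cells took 5.15 to 8.27 per 10000 reads in testis and 1.20 to 1.35 in brain, and 9 of the 13 listed genes that met the rule were higher, among them the protamine gene Prm1 (213, 128 and 608 in testis and 0, 0 and 0 in brain). Markers of T and NK cells took 4.33 to 5.64 in testis and 0.432 to 0.869 in brain. Cd3e, a chain of the T cell receptor complex, was at 102, 86.4 and 42.7 in testis and 0, 0 and 0 in brain, and its call was lost without some libraries (limma adjusted p 0.055 without testis replicate 1, 0.06 without testis replicate 2, 0.079 without brain replicate 1, 0.073 without brain replicate 2 and 0.07 without brain replicate 3). In the other direction, the neutrophil genes S100a8 (0, 0 and 0 in testis and 104, 62.4 and 89.8 in brain) and S100a9 (0, 0 and 0 in testis and 209, 22.3 and 80.9 in brain) had no read in testis. Of 8 astrocyte markers 3 were higher in testis and 2 lower. With any 1 library left out 1 or 2 were higher and at most 1 lower. Aldh1l1, a folate enzyme of astrocytes, had 62.1, 58.2 and 16.2 in testis and 0, 0 and 0 in brain. Slc1a3, their glutamate transporter, had 1.04, 37.97 and 45.3 in testis and 339, 512 and 510.2 in brain, with the call lost in part (limma adjusted p 0.093 without testis replicate 1, 0.088 without brain replicate 1, 0.12 without brain replicate 2 and 0.1 without brain replicate 3). Markers of monocytes, a list that includes Ccr2 and Lyz2, took 18.0 to 25.9 in testis and 1.79 to 3.15 in brain. The part of these other cells in the results below was not tested. In bulk RNA of sorted cells, fewer cells of a type and less RNA per cell cannot be told apart.

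**Figure D2:**
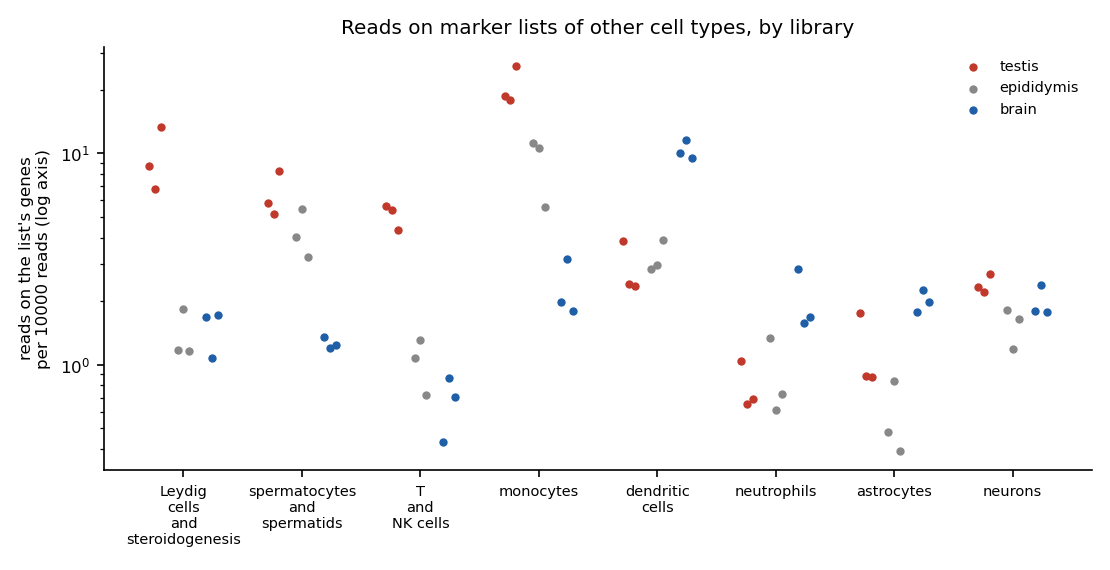
Reads on the genes of 8 marker lists per 10000 reads of the library (log axis), 1 point per library, red for testis, grey for epididymis and blue for brain. The Leydig, sperm cell, T and NK cell and monocyte lists were higher in every testis library than in every brain library. The dendritic cell list, which holds the microglial gene Siglech, was higher in brain.

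Genes of microglial identity that encode secreted proteins, enzymes and matrix proteins were lower in testis without exception. All 8 listed genes that met the rule passed in that direction, against 5.24% of all genes. They were listed as known microglial genes, with earlier results of these data known, so this direction was largely fixed in advance. The 8 fell to as few as 6 when 1 library was left out, and to 6 without the variance trend of the fit. Their median log2 fold was -5.60, or -4.94 with genes lacking testis reads set at their bound. Sparc, a matrix glycoprotein, stood at 354, 312 and 712 in testis and 10226, 11068 and 11251 in brain, and was lower still in the epididymis (74.5, 75.04 and 95.95). The organs lay more than an order of magnitude apart in every library, a log2 fold of -4.66 (SE 0.29, limma adjusted p = 9.2e-08). Serpine2, a secreted inhibitor of thrombin and other serine proteases, had 1.04, 67.1 and 1.71 in testis and 2919, 2470.2 and 3490.3 in brain. Its testis levels were near 0 in 2 of the libraries, a log2 fold of -8.67 (SE 0.91, limma adjusted p = 1.1e-05), and its epididymal levels lay between (491, 661 and 413). Olfml3, a secreted olfactomedin-domain protein, had 49.7, 2.42 and 55.6 in testis and 1942, 2037 and 2374 in brain, likewise without overlap, a log2 fold of -6.62 (SE 0.76, limma adjusted p = 2.5e-05). Upk1b, a tetraspanin, is not of this list and is counted with the surface proteins below. Upk1b was read in brain alone, at 0, 0 and 0 in testis and 132, 130.4 and 135 in brain. That made it at least 49.1-fold lower in testis (limma adjusted p = 0.0017). Cst3, which encodes the protease inhibitor cystatin C, had 1173, 2029 and 4617 in testis and 7507, 5769 and 10268 in brain, and its call was lost in 3 single omissions (limma adjusted p 0.057 without testis replicate 1, 0.052 without testis replicate 2 and 0.051 without brain replicate 3).

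Of 15 receptors and surface proteins of microglia, 13 were lower and none higher. Their median log2 fold was -4.22, or -3.88 with genes lacking testis reads at their bound. This direction too was largely fixed in advance by the choice of genes. Tmem119, a membrane protein used to mark microglia, had 349.9, 180.2 and 172 in testis and 3196, 2876 and 3479 in brain, and its epididymal values were 1378, 1324 and 1566. Testis thus held a low level in all 3 libraries, a log2 fold of -3.84 (SE 0.26, limma adjusted p = 2.2e-07). Fcrls, an Fc receptor-like scavenger protein, had 155, 55.7 and 136 in testis and 3456, 3728 and 3933 in brain, a log2 fold of -5.12 (SE 0.33, limma adjusted p = 1e-07), with epididymal values of 1305, 916 and 1436.

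Transcription factors of the macrophage lineage split in both directions. Of 36 that met the rule, 7 were higher and 11 lower in testis, with 18 not called and a median log2 fold of -0.57. The count of lower factors fell to 7 without testis replicate 3, brain replicate 2 or brain replicate 3 and to 6 without brain replicate 1. Sall3, a spalt zinc finger gene related to Sall1, was absent from the testis reads (0, 0 and 0 in testis and 1149, 1043 and 928 in brain) and nearly so from the epididymis (0, 19.7 and 0), and was at least 386-fold lower in testis (limma adjusted p = 0.00034). Sall1, the factor that maintains microglial identity, had 25.9, 12.1 and 13.7 in testis and 805, 518 and 656 in brain, so testis held a trace of it. It passed with a log2 fold of -5.23 (SE 1.33, limma adjusted p = 0.018), and the call was lost in 5 single omissions (limma adjusted p 0.058 without testis replicate 2, 0.052 without testis replicate 3, 0.11 without brain replicate 1, 0.08 without brain replicate 2 and 0.086 without brain replicate 3). Bhlhe40 and Bhlhe41, closely related basic helix-loop-helix repressors, differed in opposite directions. Bhlhe40 had 759.9, 559.8 and 409.5 in testis and 66.5, 84.7 and 42.7 in brain, a log2 fold of 3.15 (SE 0.46, limma adjusted p = 0.00026), whereas Bhlhe41 had 117, 152 and 64.1 in testis and 990.0, 1061 and 662 in brain, a log2 fold of -3.07 (SE 0.34, limma adjusted p = 1.7e-05). Runx3, a Runt family factor, had 646, 729 and 580.5 in testis and 76.5, 18.95 and 45.3 in brain, with every testis library above every brain library, a log2 fold of 3.97 (SE 0.47, limma adjusted p = 3.3e-05). Id3, an inhibitor of DNA binding by helix-loop-helix factors, had 376, 323 and 600.2 in testis and 12.8, 2.23 and 61.3 in brain, a log2 fold of 4.90 (SE 1.00, limma adjusted p = 0.0043). Ikzf1, which encodes the blood cell factor Ikaros, had 300.2, 397 and 339 in testis and 899, 1086 and 802 in brain, a log2 fold of -1.42 (SE 0.28, limma adjusted p = 0.0031). Irf8 and Mef2a, both known regulators of microglia, were lower in every testis library than in any brain library. Irf8 had 1798, 2193 and 2053 in testis and 3542, 3938 and 3161 in brain. Mef2a had 1817, 2186 and 1953 in testis and 4002, 4272 and 3289 in brain.

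The TGF-beta pathway maintains the microglial state. Of 28 pathway genes that met the rule, 6 were lower in testis, 1 was higher and 21 did not pass (median log2 fold -1.18). Among all genes, 5.24% were lower and 7.4% higher. The receptor gene Tgfbr1 had 1374, 1006 and 1442 in testis and 4372, 3953 and 4181 in brain, so the lowest brain library exceeded the highest testis library, a log2 fold of -1.73 (SE 0.20, limma adjusted p = 3e-05). Among the feedback inhibitors, Smad7 had 51.8, 235 and 174 in testis and 1164, 1429 and 848 in brain, a log2 fold of -3.12 (SE 0.46, limma adjusted p = 0.00026). Pmepa1, a membrane protein that limits Smad activation and is itself induced by the pathway, had 420.3, 349 and 565 in testis and 3477, 3265 and 2184 in brain and exceeded both in the epididymis (6060.0, 5772 and 6361). Its difference between testis and brain was a log2 fold of -2.74 (SE 0.23, limma adjusted p = 1e-06). The corepressor gene Ski had 655, 776 and 863 in testis and 2201, 2419 and 2178 in brain, a log2 fold of -1.57 (SE 0.20, limma adjusted p = 7.1e-05). The second receptor subunit gene Tgfbr2 (538, 366 and 1002 in testis and 702, 528 and 815 in brain) and the ligand gene Tgfb1 (142, 335 and 543 in testis and 617, 569.6 and 561 in brain) did not pass. The 1 higher gene was Acvrl1, a type I receptor of the same superfamily, at 224, 309 and 349.7 in testis and 84.7, 5.57 and 99.5 in brain, whose call was lost in some omissions (limma adjusted p 0.052 without testis replicate 1, 0.085 without testis replicate 2 and 0.087 without testis replicate 3).

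Genes for the uptake of dead cells and lipoproteins differed in both directions. Of 18 scavenger and efferocytosis genes that met the rule, 4 were higher and 4 lower in testis, and 10 were not called. Axl, a receptor tyrosine kinase that binds phosphatidylserine through GAS6, had 311, 575 and 619.8 in testis and 0.911, 0 and 9.78 in brain, with almost no brain reads, a log2 fold of 7.46 (SE 0.75, limma adjusted p = 7.5e-06). Mertk, its relative, had the reverse pattern at 536, 241 and 358 in testis and 5965, 5883 and 3844 in brain, a log2 fold of -3.83 (SE 0.29, limma adjusted p = 6.1e-07). In the epididymis both were read, Axl at 683, 812 and 774 and Mertk at 933, 1059 and 1513. Cd163l1, a scavenger receptor of the cysteine-rich class, had 573, 923 and 561 in testis and 0, 0 and 0 in brain and was at least 235-fold higher in testis (limma adjusted p = 0.00032), while its epididymal values were 3.64, 0 and 0. Cd36, a receptor for oxidized lipids, had 634, 318 and 277 in testis and 0.911, 0 and 9.78 in brain, a log2 fold of 7.13 (SE 0.80, limma adjusted p = 2.1e-05). On the brain side stood Lrp1, a large endocytic receptor (977, 704 and 626 in testis and 2147, 2059 and 2168 in brain), a log2 fold of -1.49 (SE 0.21, limma adjusted p = 0.00017). Elmo1, which links engulfment receptors to Rac, had 376, 239 and 327 in testis and 1193, 975 and 1193 in brain, a log2 fold of -1.85 (SE 0.27, limma adjusted p = 0.00026).

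**Figure D3:**
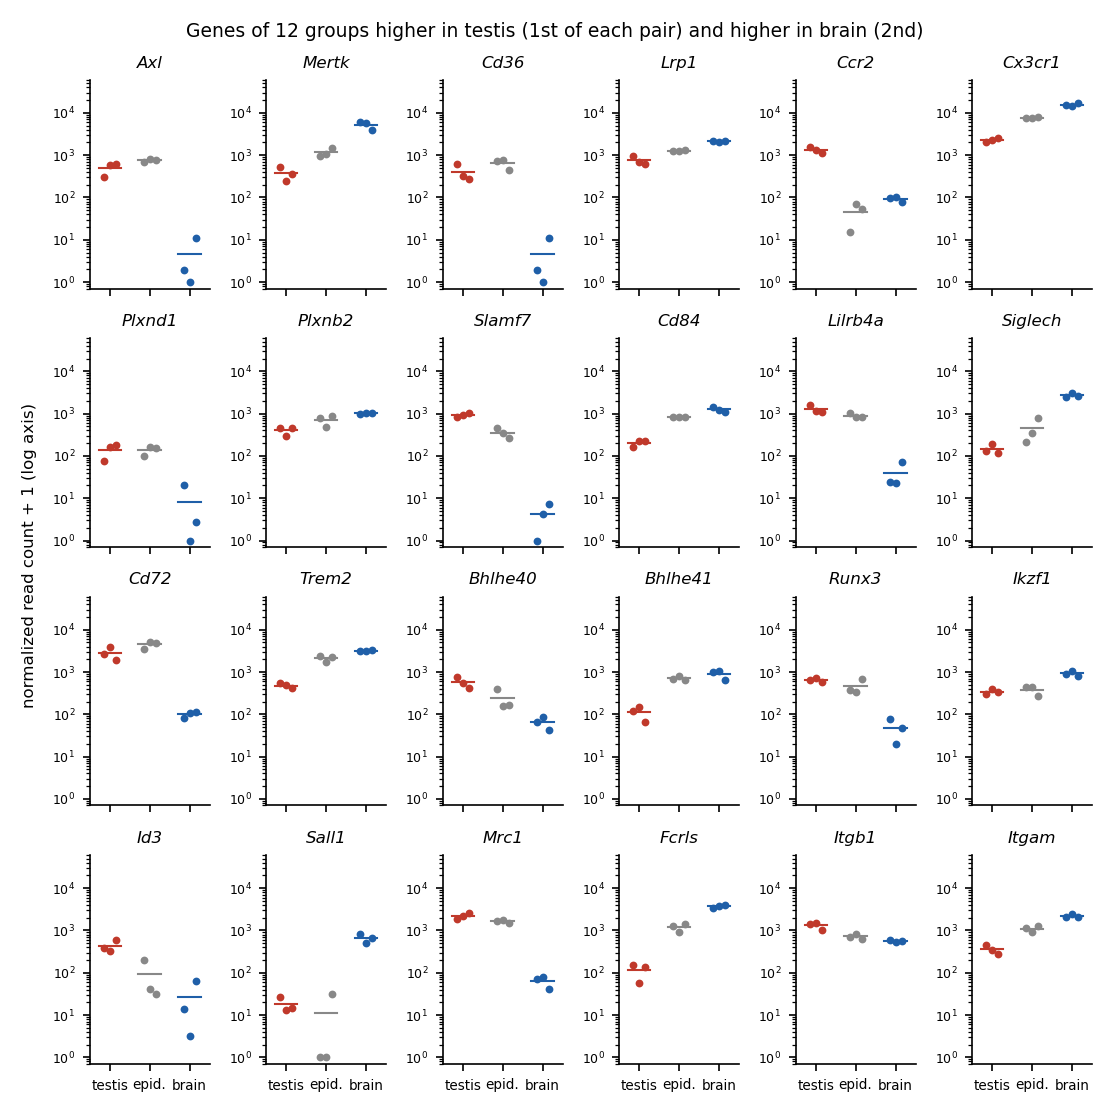
Normalized read count + 1 (log axis) in each library for 12 pairs of genes from the same broad groups, with testis in red, epididymis in grey and brain in blue and a bar at each mean. The pairs were chosen so that the gene on the left was higher in testis and the gene on the right higher in brain. The opposite directions are therefore not a result, and the genes of a pair need not be relatives. Epididymal levels lay near those of testis for some genes (Axl, Cd36) and near those of brain for others (Ccr2, Bhlhe41).

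Chemokine receptors also differed in both directions. Of 12 that met the rule, 3 were higher and 2 lower in testis, against 7.4% of all genes higher and 5.24% lower. Ccr2, the receptor by which monocytes leave the bone marrow, had 1548, 1326 and 1154 in testis and 94.7, 99.2 and 77.3 in brain, a log2 fold of 3.88 (SE 0.52, limma adjusted p = 0.00012). Its epididymal levels were low (14.5, 68.5 and 52.8). Cxcr6, a receptor of T cells and some macrophages, had 333, 557 and 333 in testis and 0, 0 and 0.889 in brain, with 1 read in all of brain. The testis level was 1296 times that of brain (95% exact counting interval 232 to 51217), with a limma adjusted p of 0.0022. Cx3cr1, the fractalkine receptor typical of microglia, had 2001, 2297 and 2516 in testis and 15092, 14205 and 17072 in brain, so testis macrophages kept a clear but lower level, a log2 fold of -2.77 (SE 0.16, limma adjusted p = 6.2e-08). Among chemokines, Cxcl16, the ligand of CXCR6, had 1845, 2251 and 1794 in testis and 172, 144 and 153 in brain, a log2 fold of 3.64 (SE 0.22, limma adjusted p = 6.5e-08). Ccl3 (252, 207 and 989 in testis and 117, 229.6 and 252 in brain) and Ccl4 (195, 297 and 906 in testis and 111, 197 and 288 in brain) did not pass, and for both testis replicate 3 was the highest of the testis libraries.

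Siglecs and paired receptors tune activation, and of 28 such genes 6 were higher, 6 lower and 16 not called. Lilrb4a, an inhibitory leukocyte immunoglobulin-like receptor, had 1575, 1125 and 1102 in testis and 23.7, 22.3 and 69.3 in brain, a log2 fold of 5.19 (SE 0.40, limma adjusted p = 6.1e-07). Cd72, an inhibitory lectin-like receptor whose annotated exons share 41.6% of their bases with Tesk1 on the other strand, had 2601, 3878 and 1934 in testis and 81.97, 106 and 115 in brain, a log2 fold of 4.74 (SE 0.27, limma adjusted p = 4.2e-08). Pirb, a receptor for MHC class I, had 928, 862 and 625 in testis and 162, 110.4 and 102 in brain, a log2 fold of 2.69 (SE 0.35, limma adjusted p = 8.8e-05). Reads of Lilrb4a and Pirb may be divided among near-identical family members. The brain side held Vsir, which encodes the checkpoint protein VISTA, at 2684, 2157 and 2295 in testis and 7844, 7933 and 9028 in brain, a log2 fold of -1.80 (SE 0.17, limma adjusted p = 2.6e-06). It also held Lair1, an inhibitory collagen receptor, at 1357, 641 and 861 in testis and 2902, 3154 and 3037 in brain, a log2 fold of -1.74 (SE 0.24, limma adjusted p = 0.00017). Trem2, the lipid-sensing receptor of microglia, had 549, 481 and 408 in testis and 3232, 3096 and 3332 in brain, a log2 fold of -2.76 (SE 0.20, limma adjusted p = 5.7e-07). In the SLAM family of self-binding receptors, Slamf9 had 2537, 4289 and 2343 in testis and 230.4, 193 and 335 in brain, a log2 fold of 3.58 (SE 0.27, limma adjusted p = 5.7e-07), whereas Cd84 had 165, 225 and 225 in testis and 1424, 1232 and 1107 in brain, a log2 fold of -2.62 (SE 0.24, limma adjusted p = 2.7e-06).

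Of 18 C-type lectins and galectins that met the rule, 9 were higher in testis, none lower and 9 not called, with a median log2 fold of 2.58. Mgl2, a galactose-binding lectin of tissue macrophages and dendritic cells, had 1689, 1938 and 1629 in testis and 15.5, 0 and 9.78 in brain, a log2 fold of 8.28 (SE 1.24, limma adjusted p = 0.00032), and its epididymal values were 10.00, 42.2 and 1.08. Mrc1, the mannose receptor, had 1895, 2248 and 2631 in testis and 71.04, 80.3 and 40.9 in brain, a log2 fold of 5.16 (SE 0.28, limma adjusted p = 2.5e-08), and an epididymal level close to that of testis (1645, 1726 and 1523). Clec12a, an inhibitory receptor for uric acid crystals, had 503, 539 and 587 in testis and 10.9, 0 and 8 in brain, a log2 fold of 6.84 (SE 0.73, limma adjusted p = 1.4e-05). Lgals3, which encodes galectin-3, had 661, 438 and 439 in testis and 0.911, 27.9 and 36.4 in brain, a log2 fold of 5.31 (SE 0.93, limma adjusted p = 0.0012). Lgals1, which encodes galectin-1, had 683, 839 and 1619 in testis and 0, 39.02 and 9.78 in brain, a log2 fold of 7.01 (SE 1.20, limma adjusted p = 0.0011). Integrins differed in both directions. Itgb1, the shared beta chain of matrix-binding integrins, had 1437, 1533 and 1027 in testis and 584, 538 and 579 in brain, a log2 fold of 1.21 (SE 0.23, limma adjusted p = 0.0025). Itga6, a laminin-binding alpha chain, had 624, 906 and 947 in testis and 1926, 1866 and 1963 in brain, a log2 fold of -1.24 (SE 0.22, limma adjusted p = 0.0013). Itgb5, a vitronectin-binding beta chain, had 160.5, 99.4 and 139 in testis and 969, 649 and 597 in brain, a log2 fold of -2.46 (SE 0.36, limma adjusted p = 0.00026).

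Antigen presentation by MHC class II, which displays peptides to CD4+ T cells, held H2-Aa and H2-Ab1, the genes with the smallest p-values. Of 20 class II genes that met the rule, 7 were higher, 1 was lower and 12 did not pass, against 7.4% of all genes higher and 5.24% lower. H2-Ab1, a class II beta chain, had 6890.0, 7061 and 9686 in testis and 45.5, 25.6 and 31.1 in brain, a log2 fold of 7.83 (SE 0.27, limma adjusted p = 5.6e-11). The lower gene was Ctss, which encodes cathepsin S, at 3634, 3723 and 7818 in testis and 8390.3, 7690.4 and 10069 in brain, and its call was lost in some omissions (limma adjusted p 0.2 without testis replicate 1, 0.19 without testis replicate 2, 0.12 without brain replicate 1, 0.09 without brain replicate 2 and 0.14 without brain replicate 3). Ciita, the coactivator that switches class II genes on, had 687, 379 and 606 in testis and 4.55, 0 and 18.7 in brain, a log2 fold of 6.82 (SE 0.85, limma adjusted p = 6.1e-05). Of 21 class I genes, which display peptides to CD8+ T cells, 6 were higher, 1 was lower and 14 did not pass. H2-D1 had 11139, 11359 and 11348 in testis and 1559, 1708 and 1866 in brain, a log2 fold of 2.72 (SE 0.16, limma adjusted p = 6.2e-08). H2-K1 had 2456, 2392 and 3058 in testis and 357, 853 and 559 in brain, a log2 fold of 2.24 (SE 0.27, limma adjusted p = 3.7e-05). B2m, the shared light chain, had 1466, 859 and 1824 in testis and 445, 284 and 627 in brain, a log2 fold of 1.62 (SE 0.34, limma adjusted p = 0.0057). Class I genes are near-identical copies in part, and reads may be divided among them. Promoter sequences in RefSeq (mouse build GRCm38.p6) covered 8570 of the 10820 genes, 628 of the higher and 442 of the lower. In the 250 bases before the start of transcription, class II promoters are known for an X box and a CCAAT box a fixed distance apart. The 120 bases before the start of 3 of the higher class II genes are shown for these elements. Capitals mark the X box (letters AACNGATG), the cyclic AMP response element, CRE (TGACGTCA), and the CCAAT box (CCAAT), each searched on both strands.
H2-Aa: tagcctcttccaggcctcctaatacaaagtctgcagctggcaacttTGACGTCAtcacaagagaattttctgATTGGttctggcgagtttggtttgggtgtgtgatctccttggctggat
H2-Eb1: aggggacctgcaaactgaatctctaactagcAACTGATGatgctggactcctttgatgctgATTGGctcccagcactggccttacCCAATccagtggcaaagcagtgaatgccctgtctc
H2-DMb1: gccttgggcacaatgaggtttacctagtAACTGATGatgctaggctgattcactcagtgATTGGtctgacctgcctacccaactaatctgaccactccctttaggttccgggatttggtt
These windows lie at chr17:34287824-34287943 on the minus strand, chr17:34305747-34305866 on the plus strand and chr17:34153071-34153190 on the plus strand. Counted from -1 at the base before the start, the X box began at -89 in H2-Eb1 and at -92 in H2-DMb1, and no match to its letters was in the H2-Aa window, where the CRE began at -74. A CCAAT box on the reverse strand began at -48 in H2-Aa, -59 in H2-Eb1 and -61 in H2-DMb1, and H2-Eb1 held a second on the forward strand at -35. The RefSeq set has 27025 promoters, of which 1.97% held the X box letters, 1.62% the CRE and 34.5% the CCAAT box. The X box letters stood in 2.07% of the higher, 1.81% of the lower and 1.48% of all compared genes. For the CRE these shares were 2.55%, 1.81% and 2.74%, and for the CCAAT box 36.3%, 33.7% and 36.1%. These letters therefore do not mark the higher genes as a group. Levels of these genes were 12632, 15012 and 16153 in testis and 71.95, 45.7 and 60.4 in brain for H2-Aa, 2636, 3046 and 3465 in testis and 37.3, 1.11 and 35.6 in brain for H2-Eb1 and 253, 219 and 262 in testis and 3.64 to 46.8 in brain for H2-DMb1. The first 2 were called in every single omission (limma adjusted p = 5.9e-12 and limma adjusted p = 6.3e-06), and H2-DMb1 (limma adjusted p = 0.016) was lost in some (limma adjusted p 0.059 without testis replicate 1, 0.06 without testis replicate 2, 0.066 without testis replicate 3 and 0.058 without brain replicate 1).

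Genes of the type I interferon response were read with the same question about their promoters. Of 34 that met the rule, 15 were higher in testis and none lower (median log2 fold 1.46). Oas1a, a sensor of double-stranded RNA, had 399.6, 223 and 212 in testis and 56.5, 11.1 and 8 in brain, a log2 fold of 3.86 (SE 0.70, limma adjusted p = 0.0017). Ifit3, an antiviral protein of the IFIT family, had 195, 167 and 206 in testis and 10.02, 0 and 17.8 in brain (limma adjusted p = 0.0049). Ifi203, an interferon-induced DNA sensor of the pyrin and HIN domain family, had 595, 748 and 629 in testis and 26.4, 74.7 and 21.3 in brain, a log2 fold of 4.19 (SE 0.42, limma adjusted p = 6.7e-06). Epididymal levels of Ifi203 were also above those of brain (1025, 731 and 925). Reads of Oas1a and Ifit3 may be divided with close copies. The sequences before their starts, and those of 2 genes of other families, are shown with matches on both strands in capitals. The interferon-stimulated response element, ISRE, was searched as GAAA and GAAA with any 2 bases between. The NF-kB site was searched as GGGA and TTTCC with any 1 base between. A loose form of the MEF2 site was searched as CTA and TAG with any 4 bases between. The MEF2 site itself has only A or T in those 4 bases, and the Cx3cr1 match has a G there.
Oas1a: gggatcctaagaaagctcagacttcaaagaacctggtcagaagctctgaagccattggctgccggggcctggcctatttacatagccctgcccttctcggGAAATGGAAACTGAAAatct
Ifit3: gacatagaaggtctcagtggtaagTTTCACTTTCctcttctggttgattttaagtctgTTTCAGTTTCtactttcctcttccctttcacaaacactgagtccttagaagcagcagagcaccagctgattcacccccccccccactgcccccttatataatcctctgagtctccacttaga
Cxcl2: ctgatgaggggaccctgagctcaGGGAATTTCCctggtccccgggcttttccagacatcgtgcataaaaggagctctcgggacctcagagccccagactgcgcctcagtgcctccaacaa
Cx3cr1: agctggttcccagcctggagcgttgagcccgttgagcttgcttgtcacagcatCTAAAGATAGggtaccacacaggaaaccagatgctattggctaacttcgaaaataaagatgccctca
The windows span chr5:120907526-120907645 on the minus strand, chr19:34583349-34583528 on the plus strand, chr5:90903779-90903898 on the plus strand and chr9:120068297-120068416 on the minus strand. In Oas1a 2 ISRE matches overlapped, beginning at -20 and -14. In Ifit3 2 matches lay on the reverse strand, at -156 and -122. The ISRE letters stood in 3.04% of all promoters and in 4.94% of those of the higher, 3.85% of the lower and 2.73% of all compared genes. The NF-kB letters of Cxcl2, a neutrophil-attracting chemokine, began at -97 and stood in 0.337% of all promoters. They stood in 5 of the 628 promoters of the higher genes (0.796%) and 1 of the 442 of the lower (0.226%). The share of all compared genes was 0.338%. Levels of Cxcl2 are not given here, and its site does not tell whether it differed. The loose MEF2 letters of Cx3cr1 began at -67. Such letters stood in 3.23% of all promoters, 1.27% of those of the higher and 4.52% of those of the lower genes. These shares do not count MEF2 sites proper. A match to letters is a description of the sequence, not a measurement of binding.

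Several enzymes that make prostaglandins and leukotrienes were lower in testis. Of 20 genes that met the rule, 4 were lower and 1 higher (median log2 fold 0.17), against 5.24% of all genes lower and 7.4% higher. Ptgs1, which encodes the constitutive cyclooxygenase COX-1, had 0, 23.4 and 49.6 in testis and 1722, 1556 and 1258 in brain, a log2 fold of -7.13 (SE 0.95, limma adjusted p = 0.00012). Its epididymal levels were near those of brain (1234, 1019 and 1003). Hpgds, which makes prostaglandin D2, had 409, 446 and 501 in testis and 2005, 1769 and 1691 in brain, a log2 fold of -2.01 (SE 0.23, limma adjusted p = 2.3e-05). Tbxas1, the thromboxane synthase, had 95.2, 16.96 and 165 in testis and 731, 458 and 545 in brain, a log2 fold of -3.11 (SE 0.59, limma adjusted p = 0.0023). Ltc4s, which makes leukotriene C4, had 0, 2.42 and 28.2 in testis and 427, 255 and 274 in brain, a log2 fold of -6.07 (SE 1.22, limma adjusted p = 0.0036). All 4 were thus higher in every brain library than in any testis library. The higher gene was Ptgds, the other prostaglandin D synthase, which had 67.3, 122 and 211 in testis and 0, 0 and 0 in brain and whose call was lost without some libraries (limma adjusted p 0.057 without brain replicate 1, 0.052 without brain replicate 2 and 0.05 without brain replicate 3). Ptgds is also made by cells of the testis other than macrophages. In lipid metabolism, Lpl, the lipoprotein lipase, had 1023, 1667 and 1254 in testis and 180.3, 329 and 292 in brain, a log2 fold of 2.31 (SE 0.28, limma adjusted p = 4.2e-05). Apoe, the lipid carrier, had 6696, 2878 and 8182 in testis and 882, 895 and 633 in brain, a log2 fold of 2.77 (SE 0.29, limma adjusted p = 1.2e-05), against epididymal levels of 102571, 102287 and 112096. Lpcat2, which makes platelet-activating factor, had 196, 259 and 432 in testis and 1392, 1216 and 1479 in brain, a log2 fold of -2.28 (SE 0.29, limma adjusted p = 7.6e-05).

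**Figure D4:**
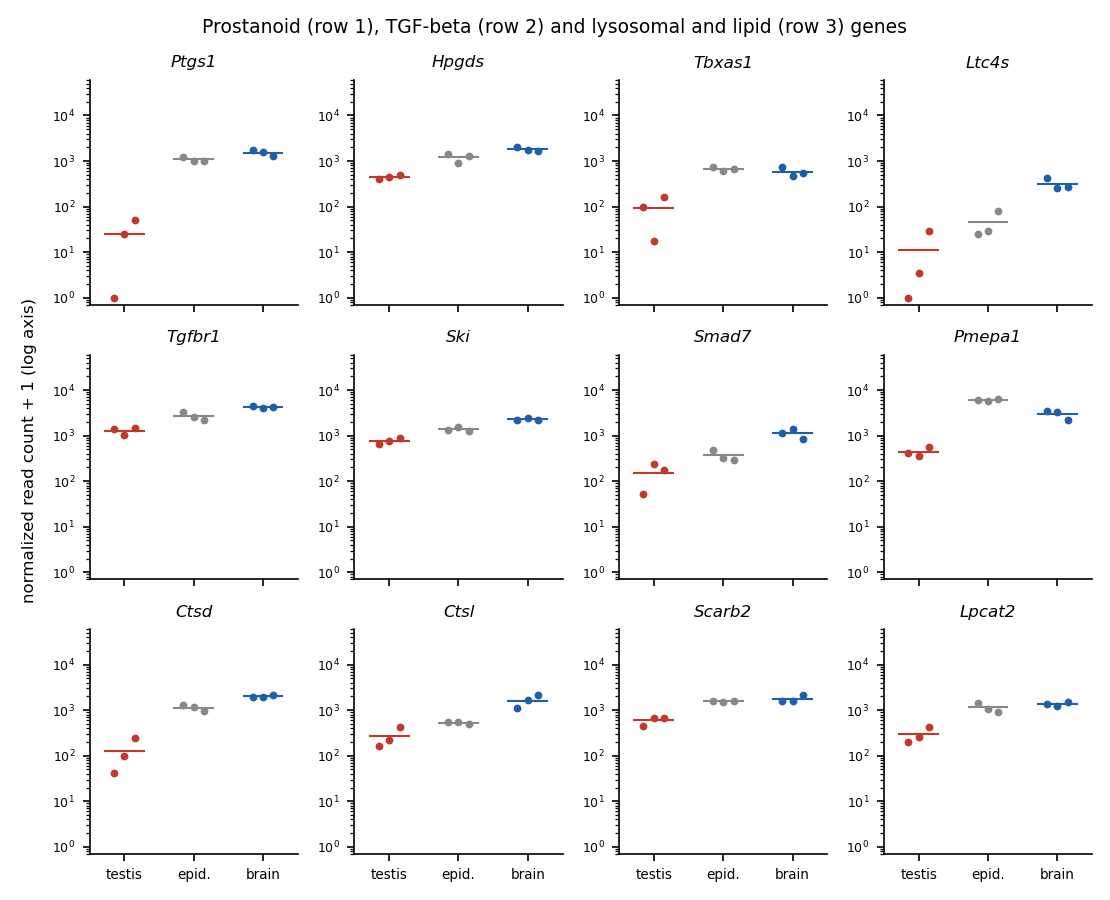
Normalized read count + 1 (log axis) in each library for 4 prostanoid and leukotriene genes, 4 TGF-beta pathway genes and 4 genes of lysosomes and lipids. All 12 were chosen as lower in testis, and each was higher in every brain library (blue) than in any testis library (red). The epididymis libraries (grey) lay near brain for Ptgs1 and Tbxas1 and above brain for Pmepa1.

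Lysosomal genes that passed were mostly lower in testis, 13 of 44 against 3 higher (median log2 fold -0.47). Among all genes, 5.24% were lower and 7.4% higher. The 13 fell to 8 without brain replicate 1, 2 or 3, and the 3 to 1 without testis replicate 1, 2 or 3 or brain replicate 1. Ctsd, the aspartic protease cathepsin D, had 40.4, 98.6 and 243 in testis and 1974, 1936 and 2169 in brain. Its log2 fold was -4.34 (SE 0.45, limma adjusted p = 8.8e-06), and it shares 34.4% of its exon bases with Gm49369. Ctsl, the cysteine protease cathepsin L, had 159, 221 and 437 in testis and 1087, 1634 and 2129.6 in brain, a log2 fold of -2.64 (SE 0.35, limma adjusted p = 0.0001). Scarb2, which carries glucocerebrosidase to the lysosome, had 439, 675 and 675 in testis and 1619, 1624 and 2105 in brain, a log2 fold of -1.59 (SE 0.22, limma adjusted p = 0.00018). Grn, which encodes the lysosomal protein progranulin, had 4026, 3328 and 3345 in testis and 8365, 8400.5 and 8882 in brain, a log2 fold of -1.27 (SE 0.19, limma adjusted p = 0.0004). Gla, the alpha-galactosidase, went the other way at 843, 482 and 493 in testis and 55.6, 117 and 209 in brain, a log2 fold of 2.39 (SE 0.46, limma adjusted p = 0.0025). Of 15 receptors and enzymes for extracellular nucleotides, 5 were lower in testis, none higher and 10 not called. P2ry12, the ADP receptor that guides microglial processes, had 122, 12.9 and 112 in testis and 2717, 2015 and 2889 in brain, a log2 fold of -5.44 (SE 0.63, limma adjusted p = 2.9e-05). Entpd1, the ectoenzyme CD39 that removes ATP, had 488, 319 and 427 in testis and 1005, 1484 and 1171 in brain, a log2 fold of -1.57 (SE 0.30, limma adjusted p = 0.0025). Adora3, an adenosine receptor gene that shares 20.9% of its exon bases with Tmigd3, had 62.1, 25.9 and 42.7 in testis and 514, 463 and 657 in brain, a log2 fold of -3.68 (SE 0.48, limma adjusted p = 9.9e-05).

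Of 46 actin genes, 19 were higher and 2 lower in testis (median log2 fold 1.05), against 7.4% of all genes higher and 5.24% lower. The lower genes were Rhoh, a GTPase of blood cells (417, 385 and 474 in testis and 1700.5, 1573 and 1335 in brain), and Wasf2, a WAVE subunit (728, 789 and 737 in testis and 1296, 1263 and 1058 in brain), whose call was lost in some omissions (limma adjusted p 0.055 to 0.17 without any 1 of the 6 libraries). Iqgap1, a scaffold that joins actin to small GTPases, had 2613, 3205 and 2602 in testis and 84.7, 268 and 85.3 in brain, a log2 fold of 4.47 (SE 0.36, limma adjusted p = 9.7e-07). Gsn, the actin-severing protein gelsolin, had 387, 402 and 605 in testis and 14.6, 0 and 0 in brain, a log2 fold of 7.51 (SE 1.04, limma adjusted p = 0.00016). Vim, the intermediate filament vimentin, had 419, 347 and 472 in testis and 15.5, 3.34 and 1.78 in brain, a log2 fold of 6.14 (SE 0.88, limma adjusted p = 0.00023). Lsp1, a leukocyte actin-binding protein, had 2298, 1820.1 and 1489 in testis and 109, 263 and 91.5 in brain, a log2 fold of 3.73 (SE 0.41, limma adjusted p = 1.9e-05), with low epididymal levels (137, 324 and 272). Of 32 genes of guidance and cell contact, 11 were lower in testis, 1 was higher and 20 did not pass, and the 11 became 7, 6 and 6 without brain replicates 1, 2 and 3. Epb41l2, a membrane skeleton protein, had 1929, 2030.1 and 3004 in testis and 14519, 12098 and 14823 in brain, a log2 fold of -2.60 (SE 0.21, limma adjusted p = 9.7e-07). F11r, which encodes the junction protein JAM-A, had 2128, 2911 and 2702 in testis and 6806, 6556 and 8324 in brain, a log2 fold of -1.49 (SE 0.18, limma adjusted p = 3.5e-05). Plxnb2, a semaphorin receptor, had 458, 290.0 and 449.7 in testis and 970.0, 1056 and 1056 in brain, a log2 fold of -1.39 (SE 0.28, limma adjusted p = 0.0036), and Plxnd1, another plexin, was the higher one, with 74.5, 165 and 176 in testis and 20.04, 0 and 1.78 in brain, a log2 fold of 5.07 (SE 1.14, limma adjusted p = 0.0083).

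Among genes of translation and of respiration, those that passed were all higher in testis. Of 77 cytosolic ribosomal protein genes, 67 were higher and none lower (median log2 fold 2.24), against 7.4% of all genes higher. The count was 67 with libraries set to the same total and 55 without the variance trend. These genes took 986 to 1109 of every 10000 reads in testis and 214 to 297 in brain. Of 37 translation factors, 11 were higher and none lower (median log2 fold 0.84). Eef2, which moves the ribosome along its message, had 2924, 2823 and 2301 in testis and 629, 799 and 754 in brain, a log2 fold of 1.88 (SE 0.20, limma adjusted p = 1.2e-05). Of 74 nuclear genes of oxidative phosphorylation, 23 were higher and none lower (median log2 fold 1.07), and the 23 fell to 13, 14 and 15 without brain replicate 1, brain replicate 2 and testis replicate 3. Atp5l, an ATP synthase subunit, had 5182, 6062 and 4947 in testis and 1584, 1309.8 and 1965 in brain, a log2 fold of 1.75 (SE 0.19, limma adjusted p = 1.4e-05). Cox6c, a cytochrome oxidase subunit, had 1799, 1849 and 3374 in testis and 476, 483 and 508 in brain, a log2 fold of 2.19 (SE 0.29, limma adjusted p = 0.00012). With libraries set to the same total, 17 of the 74 and 10 of the 37 passed as higher. Of 29 antioxidant and oxidase genes, 8 were higher and 1 lower. Sod1, the cytosolic superoxide dismutase, had 794, 765 and 951 in testis and 189, 174 and 155 in brain, a log2 fold of 2.27 (SE 0.33, limma adjusted p = 0.00023). Cybb, the catalytic subunit of the phagocyte oxidase, had 2159.7, 2508 and 2659.6 in testis and 56.5, 42.4 and 32.00 in brain, a log2 fold of 5.81 (SE 0.25, limma adjusted p = 1.3e-09), and similar epididymal levels (3391, 2911 and 3161). Ncf1, a cytosolic subunit of the same oxidase, had 365, 304 and 382 in testis and 1036, 499 and 788 in brain and was the lower gene, with its call lost in some omissions (limma adjusted p 0.082 without testis replicate 2, 0.14 without brain replicate 1 and 0.072 without brain replicate 3).

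Heat shock and immediate early genes, which also respond to tissue digestion, were mostly higher where they passed. Of 23 heat shock genes, 11 were higher (3 without the variance trend of the fit) and 1 lower, and of 34 immediate early genes, 12 were higher and 1 lower, the 12 becoming 7 without testis replicate 3 or brain replicate 1. Hspa1a, the inducible HSP70 gene, had 58334, 65051 and 58786 in testis and 9865, 14136 and 21361 in brain, a log2 fold of 2.08 (SE 0.23, limma adjusted p = 1.6e-05), and its reads may be divided with the copy Hspa1b. Dnaja1, an HSP70 partner, had 8121, 7575 and 7251 in testis and 1476, 2199 and 2350.0 in brain, a log2 fold of 1.96 (SE 0.21, limma adjusted p = 1.4e-05). Fosl2, an AP-1 subunit, had 591, 580.0 and 910.5 in testis and 192, 179 and 202 in brain, a log2 fold of 1.82 (SE 0.30, limma adjusted p = 0.00064). Dusp1, a MAP kinase phosphatase, had 3765, 4002 and 5555 in testis and 857, 1216 and 1767 in brain, a log2 fold of 1.83 (SE 0.28, limma adjusted p = 0.00037). Rhob, a stress-responsive small GTPase, was the lower immediate early gene at 1159, 1059 and 1178 in testis and 1796, 2281 and 2384 in brain, a log2 fold of -0.92 (SE 0.20, limma adjusted p = 0.0067). The lower heat shock gene was Hsp90b1, an endoplasmic reticulum chaperone, at 1623, 1774 and 2081 in testis and 3692, 3329.7 and 3469.9 in brain, a log2 fold of -0.94 (SE 0.17, limma adjusted p = 0.002). Calr, another chaperone of that compartment, had 1798, 1919 and 2033 in testis and 4068, 3672 and 4220.0 in brain, a log2 fold of -1.06 (SE 0.18, limma adjusted p = 0.00089). The part of dissociation stress in the other differences was not tested.

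**Figure D5:**
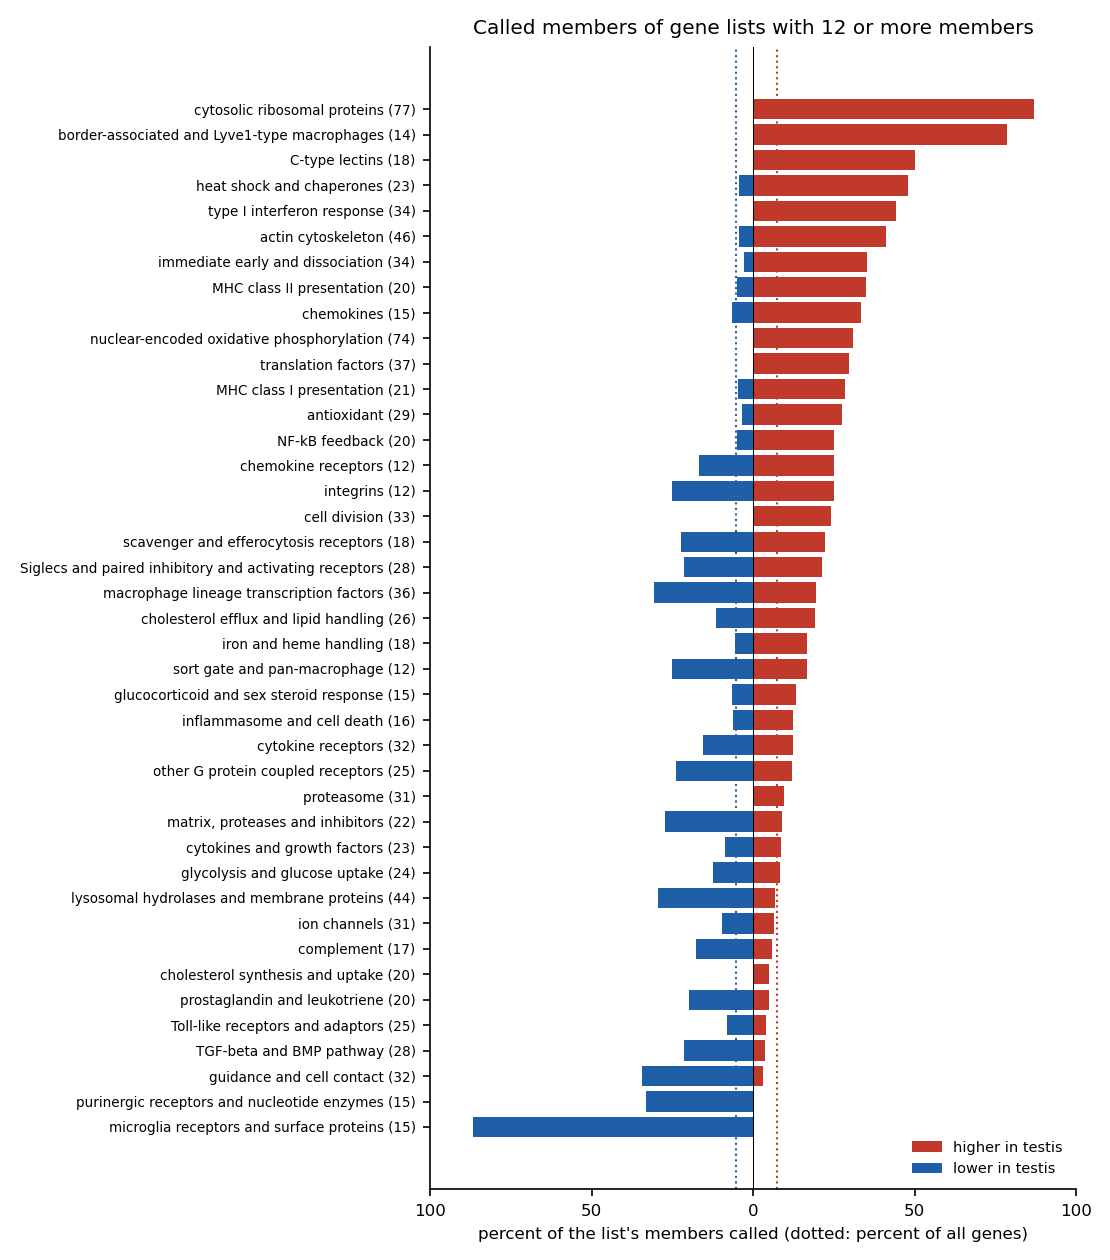
For each gene list with 12 or more members, other than the sperm cell and T and NK cell lists, the bars give the percent of its members called higher in testis (red, to the right) and lower in testis (blue, to the left), with the number of members in brackets and dotted lines at the shares of all genes, 7.4% and 5.24%. Ribosomal proteins, border-associated and Lyve1-type macrophage genes and C-type lectins lie at the top with no lower member, and nucleotide receptors and microglial receptors at the bottom with no higher member. Receptor families in the middle have bars on both sides.

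The remaining genes among those with the largest folds or smallest p-values are given by direction. On the brain side Nav3, a microtubule-binding protein, had 0, 0.808 and 4.27 in testis and 1889.9, 1867 and 1607 in brain, a log2 fold of -9.72 (SE 1.27, limma adjusted p = 9.9e-05). Srgap2, which bends membranes and regulates Rac, had 736, 964 and 934 in testis and 6402, 6569 and 5747 in brain, a log2 fold of -2.84 (SE 0.18, limma adjusted p = 9.7e-08). Frmd4a, a scaffold of cell polarity, had 256, 210.0 and 372 in testis and 3701, 3315 and 3145 in brain, a log2 fold of -3.63 (SE 0.23, limma adjusted p = 9.7e-08). Abi3, a component of a WAVE actin complex, had 321, 322 and 408 in testis and 2816, 2436 and 2335 in brain, a log2 fold of -2.85 (SE 0.22, limma adjusted p = 6.1e-07), although 70.1% of its annotated exon bases are shared with Zfp652 on the other strand. Selplg, which encodes the selectin ligand PSGL-1, had 804, 742 and 639 in testis and 5801, 4843 and 5114 in brain, a log2 fold of -2.85 (SE 0.22, limma adjusted p = 6.1e-07). Sox4, a developmental transcription factor, had 155, 0 and 41.9 in testis and 3369, 5006 and 2626 in brain. Its log2 fold was -7.55 (SE 1.25, limma adjusted p = 0.0008), and it shares 54.6% of its exon bases with Gm26735 on the other strand. Liph, a lipase that makes lysophosphatidic acid, had 0, 0 and 20.5 in testis and 614, 507 and 771 in brain, a log2 fold of -7.81 (SE 1.03, limma adjusted p = 0.00011). Capn3, Crybb1, Fscn1, Myo18b, Phyhd1, Spint1, Syngr1 and Tgfa were also lower in testis, each below 50 in every testis library. Their brain values ran from 83.6 in Spint1 to 687 in Phyhd1, which shares 47.0% of its exon bases with Gm28035. On the testis side Pf4, the chemokine platelet factor 4, had 692, 768 and 1494 in testis and 5.46, 0 and 0 in brain, a log2 fold of 8.96 (SE 0.73, limma adjusted p = 9.7e-07). Slamf7, a receptor of the SLAM family, had 828, 942 and 1015 in testis and 0, 3.34 and 6.22 in brain, a log2 fold of 8.20 (SE 0.69, limma adjusted p = 1.2e-06). The ribosomal protein genes Rpl23 (23989, 25438 and 21840.5 in testis and 2929, 3723 and 4328 in brain) and Rplp2 (29078, 30417 and 22069 in testis and 5537, 4909 and 5770.1 in brain) did not overlap between the organs, and their reads may be divided with pseudogenes. Tnp1, a nuclear protein of sperm cells, had 478, 159 and 492 in testis and 0, 1.11 and 0 in brain. Akap12, a kinase anchoring protein, had 919, 881 and 1146 in testis and 0.911, 0 and 26.7 in brain, a log2 fold of 8.02 (SE 1.14, limma adjusted p = 0.00019). Spn, which encodes the sialoprotein CD43, had 685, 1426 and 905 in testis and 0, 10.03 and 0.889 in brain, a log2 fold of 8.45 (SE 1.23, limma adjusted p = 0.00025), and is also made by T cells. Me1, the cytosolic malic enzyme, had 442, 256 and 445 in testis and 0, 0 and 0 in brain. Aldh1a1, a retinaldehyde dehydrogenase, had 406, 225 and 533 in testis and 0, 1.11 and 0 in brain. Both also belong to the genes that Leydig cells express, and both were listed at 0 in all epididymis libraries. Acsbg1, an acyl-CoA synthetase of steroidogenic and nerve cells, had 533, 204 and 577 in testis and 0, 0 and 0 in brain. Hsd17b3, which makes testosterone, had 424, 153 and 566 in testis and 0.911, 0 and 0 in brain. Agt, which encodes angiotensinogen, had 453, 116 and 645 in testis and 0, 0 and 0 in brain. The reductase gene Akr1cl had 908, 459 and 1279 in testis and 11.8, 1.11 and 0 in brain. In each of these 4 genes testis replicate 2 was the lowest of the testis libraries, as it was for Insl3 and Cyp17a1. The same order is not particular to Leydig cell genes: it was also seen in Tnp1, Prm1, Apoe, B2m and Ciita. The part of these 4 genes in the reads on Leydig cell markers described above was not tested.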

How the data were processed

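Messenger RNA of sorted macrophages was sequenced as 3 libraries per organ. The deposited values are a normalized signal: in each library every value is a whole number of reads times 1 factor, and dividing by that factor returned whole reads for all genes (tolerance 1e-06). Per the submitters' processing notes, the authors' tools included CASAVA 1.8, Bowtie2 2.2.1, Partek 6.6 and DESeq2, with genome build mm10. Which step each tool did, and how reads were counted, is not given in the sources used here. Per the labels' protocols, the library kit does not keep the strand, so reads of overlapping genes cannot be told apart. Shared exon bases are given beside some of the genes named, not all.

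Values were analysed as log2(value + 1) with limma 3.58.1 in R 4.3.3, with 1 mean per organ, a variance trend and a spread shared by all 9 libraries. Genes with 10 or more in at least 3 of the 9 libraries were tested (11766), and Benjamini-Hochberg adjustment ran over all of them. The scripts were tested on simulated data. The text names gate markers, members of gene lists on cell types and pathways, the 15 largest folds in each direction and the 10 smallest p-values in each direction among non-overlapping, well-expressed called genes. The genes compared and the lists were chosen with earlier results of these data known. Alternatives covered the pseudocount, filter, normalization, variance model, libraries, threshold, edgeR 4.0.16 and DESeq2 1.42.0 on the recovered reads. Counting intervals and floors cover counting error only. Genes under about 10 rest on few reads.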

Additional observations from a re-analysis of the deposited data

How the results depend on the processing

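With 3 libraries per organ, each count rests strongly on single libraries. Leaving out 1 library at a time gave 827 to 1053 called genes, 522 to 652 higher and 305 to 481 lower. Without the variance trend 829 genes passed, 525 higher and 304 lower. At an adjusted p under 0.01 there were 704, 432 and 272, and with a fold of at least 4 there were 815, 509 and 306. The other settings gave 1050 (edgeR on the recovered reads, 611 higher and 439 lower) to 1802 genes (limma with library weights, 1025 and 777), and DESeq2 called 1508. The higher share of the called genes was 58.6%, but 45.8% with equal totals and 53.9% with quantile normalization. Of 441 named called genes, none changed direction under any setting. This was largely fixed in advance, because the genes were chosen as called in these data. Some settings, such as the filter and the variance trend, leave the fold itself unchanged. Nor can leaving out 1 library reverse a gene whose testis and brain values do not overlap. The calls lost were 166 without the variance trend, 78 to 110 when 1 library was left out, 53 with edgeR, 37 with equal totals and at most 25 under each of the others. Without the variance trend, list counts that moved by over 1.5 times included the lower lineage factors (11 to 3), lysosomal genes (13 to 4) and guidance genes (11 to 4), and the higher respiration (23 to 7), actin (19 to 9), heat shock (11 to 3), translation (11 to 5), interferon (15 to 9), immediate early (12 to 5) and class I genes (6 to 3), and the higher lineage factors (7 to 4). The cause was not tested. Library depth limits genes read in 1 organ only, whose folds are lower bounds. No paired analysis was possible because the labels give no replicate numbers that organs share.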

Other observations

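Of 32 cytokine receptor genes, 4 were higher and 5 lower in testis (median log2 fold -0.21), where 7.4% and 5.24% of all genes were higher and lower. The 4 became 1 without testis replicate 1, testis replicate 2 or brain replicate 1, and 2 without testis replicate 3 or brain replicate 2. Il18r1, a subunit of the interleukin-18 receptor, had 1082, 1247 and 639 in testis and 11.8, 60.2 and 13.3 in brain, a log2 fold of 5.41 (SE 0.64, limma adjusted p = 3.7e-05), and its epididymal values were 60.9, 51.6 and 46.4. T and NK cells also make it, and their markers were higher in testis, as given above. Csf3r, the granulocyte growth factor receptor, had 0, 8.89 and 9.4 in testis and 332, 245 and 202 in brain, a log2 fold of -5.77 (SE 1.04, limma adjusted p = 0.0016). Il6st, the shared signalling chain of the interleukin-6 family, had 26.9, 193 and 133 in testis and 646, 751 and 715 in brain, a log2 fold of -2.97 (SE 0.55, limma adjusted p = 0.0021). Il17ra, the interleukin-17 receptor, had 685, 465 and 746 in testis and 2832, 3113 and 1843 in brain, a log2 fold of -2.03 (SE 0.28, limma adjusted p = 0.00015). These 3 were thus higher in every brain library than in any testis library.

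Among other sensors, Gpr65, a receptor for extracellular acid, had 405, 578 and 488 in testis and 43.7, 15.6 and 38.2 in brain, a log2 fold of 3.98 (SE 0.38, limma adjusted p = 4.4e-06), and its epididymal values of 3120.0, 2485 and 1894 exceeded both. Adgre5, which encodes the adhesion receptor CD97 and shares 23.8% of its exon bases with Ddx39, had 424, 477 and 498 in testis and 26.4, 32.3 and 0.889 in brain, a log2 fold of 5.28 (SE 0.86, limma adjusted p = 0.00066). Gpr34, a lysophosphatidylserine receptor of microglia, had 282, 146 and 196 in testis and 1279, 1157 and 1296 in brain, a log2 fold of -2.63 (SE 0.31, limma adjusted p = 3.2e-05). Tlr3, the endosomal receptor for double-stranded RNA, had 139, 64.6 and 131 in testis and 421, 496 and 484 in brain, a log2 fold of -2.13 (SE 0.37, limma adjusted p = 0.0011), and Cd180, a relative of the Toll-like receptors, had 21.7, 48.5 and 56.4 in testis and 333, 390.2 and 259.5 in brain, a log2 fold of -3.01 (SE 0.45, limma adjusted p = 0.00028). Of 31 ion channel genes, 2 were higher and 3 lower, shares near those of all genes. Trpm2, a calcium channel opened by oxidants, had 256, 135 and 223 in testis and 668, 682 and 591 in brain, a log2 fold of -1.70 (SE 0.26, limma adjusted p = 0.0004), against epididymal values of 2207, 2201 and 2166. Clic4, a chloride intracellular channel protein, had 463, 545 and 773 in testis and 83.8, 62.4 and 79.99 in brain, a log2 fold of 2.94 (SE 0.36, limma adjusted p = 5.3e-05). Hk2, which encodes the inducible hexokinase, had 2175, 1547 and 1709.8 in testis and 5954, 5533 and 6803 in brain, a log2 fold of -1.76 (SE 0.20, limma adjusted p = 2e-05). Sgk1, a kinase gene induced by glucocorticoids, had 172, 227 and 151 in testis and 925, 1150.4 and 1253 in brain, a log2 fold of -2.60 (SE 0.31, limma adjusted p = 3.5e-05), and its epididymal values (223, 153 and 181) lay near those of testis. Ftl1, the ferritin light chain gene, had 1468, 1886 and 2625 in testis and 615, 396 and 790.1 in brain, a log2 fold of 1.75 (SE 0.30, limma adjusted p = 0.00098).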
